A study of Mus musculus with 9 samples.

Results

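Respiratory complex I is the proton-pumping NADH dehydrogenase of the inner mitochondrial membrane, and its nuclear-encoded subunits are described here in podocytes of the mouse kidney. The genes were chosen by name alone: every symbol that begins with Nduf, followed by a, b, c, s, v or ab and a number. The rule found 37 of the 23309 symbols in the table, each on 1 row. All 37 reached 1 FPKM in 3 or more of the 9 libraries and so were tested, with 9788 genes in all. Ndufb1 and the 7 subunits encoded by mitochondrial DNA were not matched in the table and are not analysed here.

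Podocytes are epithelial cells whose foot processes cover the glomerular capillaries and form part of the filtration barrier. All groups were wildtype mice of 7 to 8 weeks that carried mTmG, a reporter which Cre, here expressed by podocytes, switches to green fluorescent protein. RNA came from GFP-positive cells. There were 3 libraries from mice given PBS, 3 from day 9 and 3 from day 14 after a treatment the labels call ADR, an abbreviation commonly used for adriamycin (doxorubicin), a drug that injures podocytes in mice. The reporter marks cells in which Cre was active at any time, so a cell stays marked when its podocyte genes fall. Separate mice are not stated for the libraries within a group, so a p-value here reflects only library-to-library spread, which may be technical.

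Complex I takes electrons from NADH and passes them to ubiquinone while moving protons across the membrane. Its core subunits hold the flavin and the iron-sulfur clusters that carry the electrons, and the mitochondrially encoded core subunits form the proton channels. The accessory subunits surround this core and are needed for its assembly and stability. Doxorubicin is known to act on mitochondria as well as on DNA, and podocytes contain mitochondria mainly in the cell body and the primary processes.

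Nuclear genes of the respiratory chain are known to share promoter motifs, among them those bound by NRF1, by ETS factors such as GABPA and by YY1. RefSeq promoters (build GRCm38.p6, 250 bases before to 50 after the transcript start) were found for 33 of the 37 genes. The letters GCGCANGCG (NRF1), searched on both strands, were in the promoters of 8 of the 33 genes (24.2%), against 7.03% of 27025 genes in the promoter table. AAGATGGC (YY1) was in 7 (21.2%, against 3.19%) and CCGGAAG (ETS factors) in 4 (12.1%, against 9.93%). At least 1 of the motifs was in 18 of the 33 (54.5%, against 17.8%). Of the 8 genes with the NRF1 letters, Ndufa5, Ndufa6, Ndufa8, Ndufa11 and Ndufs6 rose on day 14. The others of the 8, Ndufb4, Ndufb10 and Ndufs5, did not pass the test described below. The 100 bases before the start are shown for 4 accessory subunits that rose on day 14. The first 3 hold the NRF1 letters, in capitals, and that of Ndufa12, the subunit with the largest change, holds none of the motifs in its window. Ndufs6 lies at chr13:73328483-73328582 (minus strand), Ndufa8 at chr2:36049339-36049438 (minus), Ndufa11 at chr17:56717662-56717761 (plus) and Ndufa12 at chr10:94198935-94199034 (plus).
Ndufs6: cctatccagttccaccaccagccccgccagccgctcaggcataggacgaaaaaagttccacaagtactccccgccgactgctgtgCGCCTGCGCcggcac
Ndufa8: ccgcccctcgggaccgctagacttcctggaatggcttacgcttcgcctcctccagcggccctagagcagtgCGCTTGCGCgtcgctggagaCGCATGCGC
Ndufa11: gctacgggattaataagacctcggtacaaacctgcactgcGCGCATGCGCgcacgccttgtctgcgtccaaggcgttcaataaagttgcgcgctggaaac
Ndufa12: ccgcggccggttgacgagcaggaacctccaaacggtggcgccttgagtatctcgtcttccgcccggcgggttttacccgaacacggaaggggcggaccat
In Ndufa11 the capitals are 2 overlapping matches, 1 on each strand. A match is a description of the sequence only.

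The values are FPKM (fragment numbers scaled to transcript length and to library size), and column totals ran from 572787 to 723288. Relative depth, estimated from the smallest steps between low values and set to 1 for PBS replicate 2, was 0.783 to 1.083 in the other PBS and day 9 libraries and 0.239, 0.460 and 0.569 on day 14. The values of the day 14 libraries therefore rest on the fewest fragments. The 14 podocyte markers summed to 4432 to 7654 FPKM with PBS, 6204 to 10278 on day 9, and 1543, 2225 and 1423 on day 14. All 14 were above 0 in every library except Lmx1b, at 0 in day 14 replicate 1. In bulk RNA, fewer cells of a type and less RNA per cell cannot be told apart. The libraries that stood apart most by the markers of other cells were day 14 replicate 1, day 9 replicate 3 and, mainly by red cell markers, day 9 replicate 1. In day 14 replicate 1, the 14 proximal tubule markers summed to 3279 FPKM (PBS 39.4 to 59.9, other day 14 libraries 44.3 and 15.4) and the 12 loop, distal tubule and duct markers to 12524 (PBS 9.16 to 37.3, other day 14 libraries 5.23 and 6.30). Of these, 13 of 14 and 12 of 12 were over 4 times their PBS maximum there. The other lists raised in it were leukocyte (1219 FPKM), endothelial (799), parietal epithelial (441) and red cell markers (66.5). In day 14 replicate 3, parietal epithelial markers summed to 115 FPKM (PBS 36.6 to 61.5). Endothelial markers there summed to 17.8 FPKM (PBS 4.19 to 12.7), with 2 of 12 over 4 times their PBS maximum. In day 9 replicate 3, the 12 endothelial markers summed to 3305 FPKM (PBS 4.19 to 12.7), and all 12 were over 4 times their PBS maximum. Also raised there were leukocyte (753 FPKM, PBS 5.74 to 77.6), loop, distal tubule and duct (571), mesangial (431, PBS 50.8 to 136.7), parietal epithelial (320, PBS 36.6 to 61.5), red cell (248) and proximal tubule markers (164). In day 9 replicate 1, red cell markers summed to 548 FPKM (PBS 0.563 to 5.45) and endothelial markers to 28.8. Proximal tubule markers were above PBS in all 3 day 9 libraries, at 124, 150 and 164 FPKM in replicates 1, 2 and 3. Of the 14, 0, 2 and 4 were over 4 times their PBS maximum there. Y-linked transcripts summed to 53.6 FPKM or more in the PBS libraries, day 9 replicate 1 and day 14 replicate 2, and to 1.06 or less in the other 4 libraries.

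With PBS, the mean levels of the subunits ran from 1.21 FPKM for Ndufs3 to 3302 for Ndufb4, a ratio of 2723, although the complex holds these subunits in near-equal numbers. There were 8 subunits over 1000 FPKM, 13 between 100 and 1000, 8 between 10 and 100, and 8 under 10. Together they took 3.20%, 2.89% and 3.13% of the summed FPKM in the 3 PBS libraries. The 5 highest, Ndufb4, Ndufb8, Ndufb6, Ndufa2 and Ndufb10, are all small accessory proteins, and the core subunit Ndufs7 came next at 1080 FPKM. The lowest after Ndufs3 were Ndufc2, Ndufb3 and Ndufb5, accessory proteins of the membrane arm, at 2.05, 2.50 and 3.44 FPKM. Across the 37 genes, PBS level and coding transcript length had a rank correlation of 0.002. Ndufs3 and Ndufb11 each have a processed pseudogene with at least 95% identity over at least 50% of the coding transcript, so their values are uncertain, since the handling of reads with several matches is not given in the sources used here.

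The order of the levels was nearly the same in every group. The rank correlation of the 37 group means was 0.998 between PBS and day 9 and 0.952 between PBS and day 14, and it ran from 0.890 to 0.996 between single libraries, which share gene length and annotation. Ndufb4 was highest and Ndufs3 lowest in all 3 groups. On day 14 the ratio between them was 989, 13 subunits were over 1000 FPKM and 3 were under 10. The median coefficient of variation among the 3 libraries was 15.7% with PBS, 24.8% on day 9 and 43.9% on day 14.

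**Figure D1:**
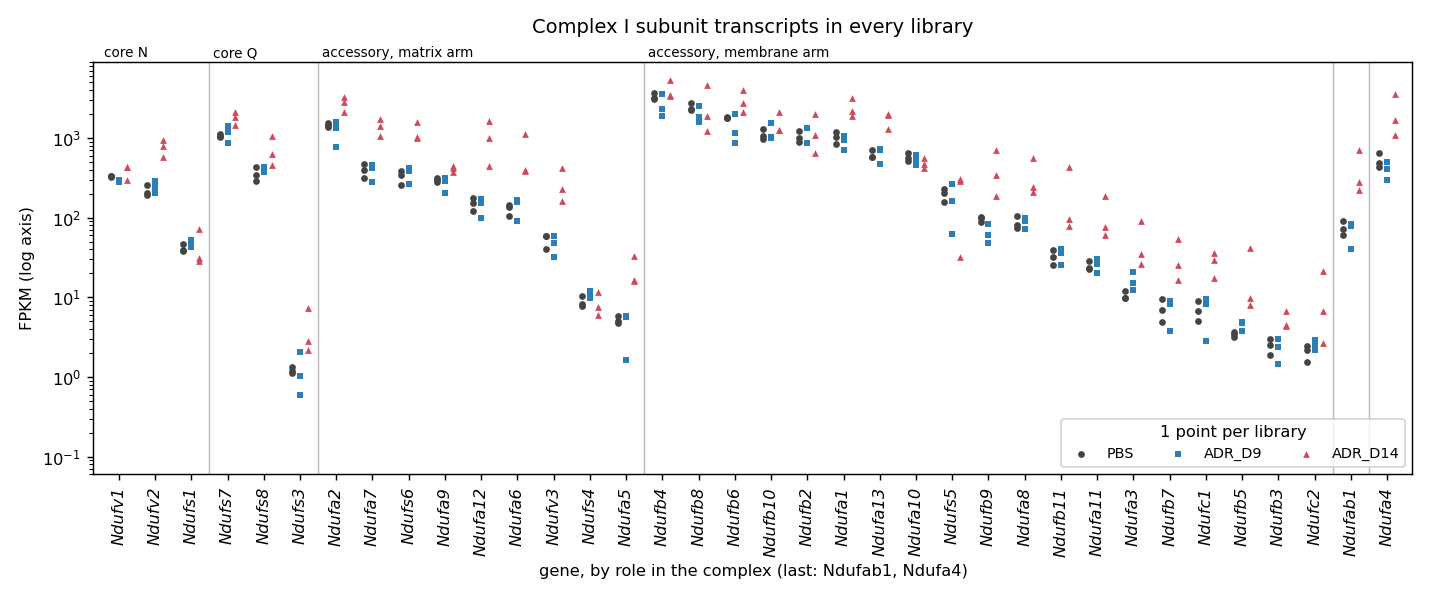
FPKM (log axis) of 36 of the complex I subunits, grouped by role and ordered by PBS level, with 1 point per library (grey circles PBS, blue squares day 9, red triangles day 14). Means with PBS span 1.21 to 3302 FPKM, and for Ndufa12, Ndufab1 and Ndufv2 all 3 day 14 points lie above all PBS points, while those of Ndufa10 and Ndufs4 overlap.

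Comparing day 9 with PBS asks whether subunit transcripts had changed early after ADR. No complex I subunit passed the test (0 of 37), and none of the 9788 genes did (0%) by limma with Benjamini-Hochberg adjustment. At an unadjusted p under 0.05 there were 0 subunits and 304 genes. Log2 changes were computed from log2(FPKM + 1), so those of low genes are understated, and the median change over all genes tested was subtracted from each. In every comparison the p-values and calls test the change before this subtraction. The median subtracted was 0.04 for day 9 against PBS, −0.15 for day 14 against PBS and −0.22 for day 14 against day 9. The median over the subunits was −0.08, from −0.65 for Ndufb9 to 0.51 for Ndufa3, where the median gene is 0.

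Only Ndufa3 and Ndufb5 were above all PBS libraries in all 3 day 9 libraries (6.77% of all genes were), and only Ndufv1 and Ndufb9 were below them (6.63%). Ndufa3, a small membrane-arm protein, was at 9.70, 9.81 and 11.9 FPKM in the PBS libraries and 20.7, 15.1 and 12.3 in those of day 9. Ndufb9, a membrane-arm protein of the LYR family, was at 100.1, 89.0 and 101 FPKM in the PBS libraries and 60.3, 84.1 and 48.5 in those of day 9. The day 9 libraries differed among themselves. Replicate 3, the library with markers of several other cells, was the lowest of its group for 32 of 37 subunits and below all PBS libraries for 28, while replicate 2 was below them for 3. These are counts of single libraries, without a share of all genes beside them. Leaving out replicate 3 moved the median change to 0.14, leaving out replicate 2 moved it to −0.28 and leaving out replicate 1 moved it to −0.19. The part of the other cells in these values was not tested.

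Comparing day 14 with PBS asks what had changed at the later time. Here 19 of 37 subunits rose and none fell (adjusted p under 0.05, limma), beside 6.32% of all genes tested that rose and 10.7% that fell. The median change of the subunits was 1.61, from −0.30 for Ndufs5 to 2.72 for Ndufa12, and 35 of 37 lay above the median gene. In 28 of 37 subunits all 3 day 14 libraries were above all PBS libraries (15.6% of all genes), and in 0 were all 3 below (23.8% of all genes). The subunits together took 5.45%, 3.73% and 4.75% of the summed FPKM on day 14. The summed tubule markers of day 14 replicates 2 and 3 were no higher than in the highest PBS library. These replicates were above all PBS libraries for the 28 subunits by definition. With replicate 1 set aside no further subunit joined the 28, and no share of all genes was computed for that case.

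**Figure D2:**
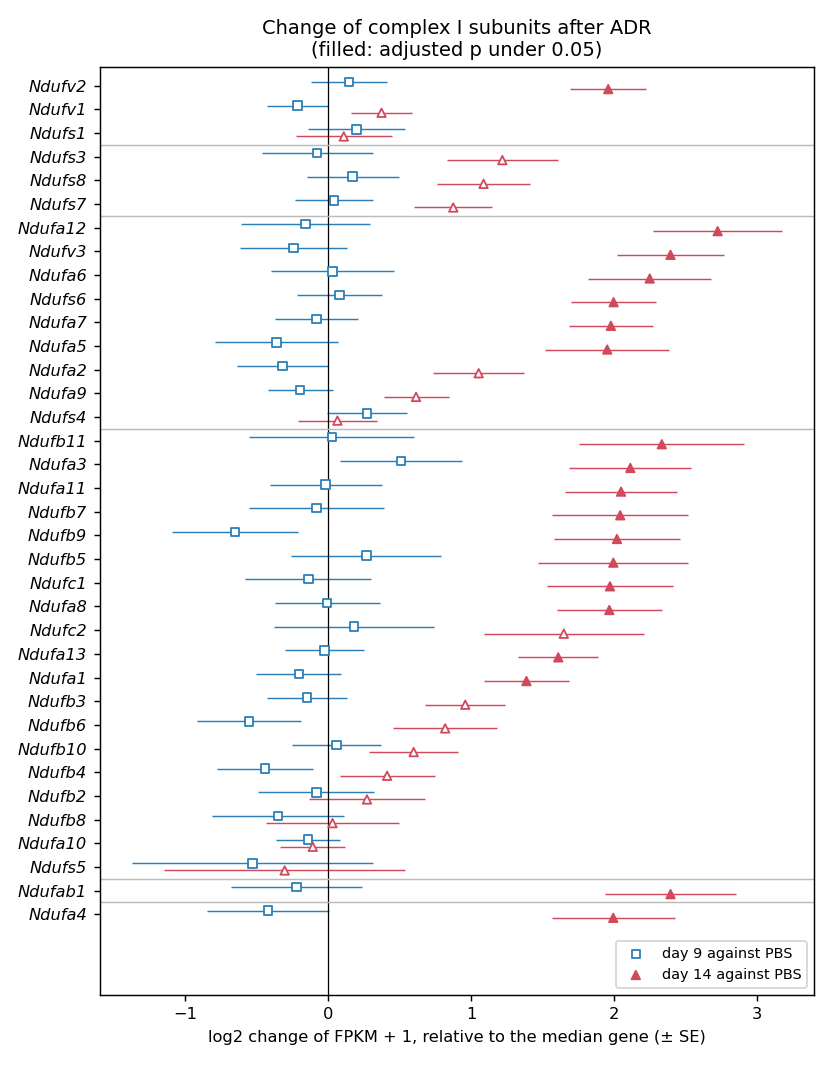
Log2 change (FPKM + 1, relative to the median gene, ± SE from limma) of 36 subunits, by role, for day 9 against PBS (blue squares) and day 14 against PBS (red triangles); filled symbols have an adjusted p under 0.05. All blue symbols are open and lie between −0.65 and 0.51, while 19 red symbols are filled and reach 2.72.

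Among the core subunits, which carry the electrons, 1 of 7 rose on day 14 and the median change was 0.88. The one that rose was Ndufv2, which holds an iron-sulfur cluster beside the flavin site. It was at 257, 203 and 191 FPKM in the PBS libraries, 292, 246 and 203 in those of day 9, and 958, 573 and 797 in those of day 14. Every day 14 library was above all others, and the change was 1.96 ± 0.26 (SE, adjusted p = 0.00994, limma, n = 3 per group). Its partner Ndufv1, which binds NADH and the flavin, was at 322, 333 and 329 FPKM in the PBS libraries and 433, 299 and 439 in those of day 14. These values overlap, and the change was 0.37 ± 0.21 (adjusted p = 0.48, limma). Ndufs1, the largest subunit, with several iron-sulfur clusters, was at 37.9, 39.0 and 46.6 FPKM in the PBS libraries, 52.5, 43.2 and 49.8 in those of day 9, and 71.5, 28.6 and 30.9 in those of day 14. Day 14 replicate 1, the library with tubule and other cells' markers, was the highest of its group and the other 2 were below all PBS libraries. The change of Ndufs1 was 0.11 ± 0.34 (adjusted p = 0.95, limma) and −0.28 without day 14 replicate 1. In the NADH-oxidizing module, then, 1 gene rose and the other 2 overlapped with PBS.

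Of the quinone-reducing module, Ndufs7, Ndufs8 and Ndufs3 did not pass the test, though each was above all PBS libraries in all 3 day 14 libraries. Ndufs7, which carries the cluster next to the quinone, was at 1137, 1035 and 1069.7 FPKM in the PBS libraries and 2127, 1829 and 1474 in those of day 14. Ndufs8, a protein with 2 iron-sulfur clusters, was at 435, 292 and 346 FPKM in the PBS libraries and 1073, 464 and 625 in those of day 14. The lowest Ndufs8 value of day 14 was close to the highest with PBS, and the groups of Ndufs7 stood farther apart. Ndufs3, a core subunit that holds no cofactor, was at 1.13, 1.32 and 1.18 FPKM in the PBS libraries, 1.02, 2.08 and 0.596 in those of day 9, and 7.32, 2.16 and 2.83 in those of day 14, and was the only subunit under 1 FPKM in any library. The changes from PBS were 0.88 for Ndufs7, 1.09 for Ndufs8 and 1.22 for Ndufs3, with adjusted p of 0.097, 0.076 and 0.090 by limma.

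Of the 9 accessory subunits of the matrix arm, 6 rose on day 14 and the median change was 1.98. Ndufa12, which joins the matrix arm late in assembly, was at 179, 123 and 154 FPKM in the PBS libraries, 154, 173 and 97.8 in those of day 9, and 1635, 452 and 989 in those of day 14. The day 14 libraries were spread widely and all lay above the others, a change of 2.72 ± 0.45 (adjusted p = 0.012, limma). Ndufv3, a small subunit of the NADH module, was at 58.4, 40.6 and 58.1 FPKM in the PBS libraries and 415, 162 and 231 in those of day 14, a change of 2.40 ± 0.37 (adjusted p = 0.011, limma). Ndufs6, a zinc-binding subunit that joins late in assembly, was at 383, 259 and 348 FPKM in the PBS libraries and 1595, 999 and 1022 in those of day 14, a change of 2.0 ± 0.29 (adjusted p = 0.011, limma). The groups did not overlap for any of these 3. Ndufa6, a LYR protein that binds the acyl carrier protein, was at 145, 105 and 138 FPKM in the PBS libraries and 1108, 391 and 392 in those of day 14 (change 2.25 ± 0.43). Ndufa5 and Ndufa7 also passed, with changes of 1.95 and 1.98. Ndufa5 was a low transcript, at 5.86, 4.75 and 5.04 FPKM in the PBS libraries and 32.9, 16.7 and 15.97 in those of day 14.

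The other 3 of the matrix arm did not pass. Ndufa2, a thioredoxin-fold subunit, had no overlap (1523, 1442 and 1362 FPKM in the PBS libraries, 3234, 2841 and 2147 in those of day 14, change 1.05 ± 0.32, adjusted p = 0.083, limma). Ndufa9, which helps hold the matrix and membrane arms together, had none either, at 300.2, 277 and 313 FPKM in the PBS libraries and 372, 416 and 447 in those of day 14. Ndufs4, whose loss causes a mitochondrial encephalopathy, had day 14 values on both sides of the PBS range: 7.81, 8.16 and 10.4 FPKM in the PBS libraries, 11.3, 9.83 and 12.1 in those of day 9, and 7.66, 5.97 and 11.8 in those of day 14.

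Of the 19 accessory subunits of the membrane arm, 10 rose on day 14 and the median change was 1.61. The largest changes were 2.33 ± 0.58 for Ndufb11, 2.11 ± 0.43 for Ndufa3, 2.05 ± 0.39 for Ndufa11, 2.04 ± 0.47 for Ndufb7 and 2.02 ± 0.44 for Ndufb9. Their adjusted p were 0.035, 0.021, 0.018, 0.030 and 0.025 (limma). Ndufb11, encoded on the X chromosome, was at 39.1, 25.5 and 32.3 FPKM in the PBS libraries and 432, 96.8 and 77.8 in those of day 14, so replicate 1 was far above the other 2. Without day 14 replicate 1 and day 9 replicate 3 the change of Ndufb11 was 1.59. Ndufa11, a multi-pass protein that stabilizes the membrane arm, was at 28.8, 22.5 and 23.7 FPKM in the PBS libraries and 185, 76.6 and 61.3 in those of day 14. Ndufb7, a protein of the intermembrane face, was at 9.46, 6.99 and 4.89 FPKM in the PBS libraries and 54.0, 16.3 and 25.7 in those of day 14. Replicate 1 was again the highest of the day 14 libraries. For Ndufa3 the day 14 values were 90.02, 35.3 and 26.1 FPKM, and for Ndufb9 they were 704, 185 and 348. Ndufa1, Ndufa8, Ndufa13, Ndufb5 and Ndufc1 also rose, with changes of 1.39 to 1.99. Ndufa8, a twin-cysteine protein whose promoter is printed above, was at 104, 80.2 and 74.8 FPKM in the PBS libraries and 560.0, 239.8 and 210.3 in those of day 14.

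Abundant membrane-arm subunits were among the 9 that did not pass. Ndufb4, the highest of all, was at 3632, 3048 and 3227 FPKM in the PBS libraries and 3382, 3422 and 5367 in those of day 14. Ndufb8, a subunit often used to follow the assembled complex on blots, was at 2720.3, 2223 and 2318 FPKM in the PBS libraries and 1243, 1888 and 4688 in those of day 14. In both genes day 14 replicate 3 stood above the other libraries. Ndufb2, Ndufb10 and Ndufa10 also overlapped between the groups, and Ndufa10, a subunit with a nucleoside kinase fold, was at 519.6, 559 and 649 FPKM in the PBS libraries and 562, 476 and 415 in those of day 14 (change −0.11 ± 0.23). Ndufs5 was at 302 and 287 FPKM in day 14 replicates 1 and 2 and at 32.6 in replicate 3, with 226, 158 and 207 with PBS. Ndufb3, Ndufb6 and Ndufc2 did not overlap: the 2 low transcripts Ndufb3 and Ndufc2 reached 4.38 to 6.66 and 2.69 to 21.4 FPKM on day 14. Several of these genes are named because of values already seen. Across the 37 genes the change had a rank correlation of −0.43 with PBS level, as a description, since PBS values enter both measures.

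Ndufab1, the mitochondrial acyl carrier protein that is present in both arms and also serves fatty acid synthesis, was at 91.1, 59.9 and 71.8 FPKM in the PBS libraries, 82.4, 79.1 and 40.4 in those of day 9, and 709, 220.4 and 278 in those of day 14. No day 14 value overlapped another group, and the change was 2.40 ± 0.46 (adjusted p = 0.018, limma). Ndufa4, once counted in complex I and later placed with complex IV, was at 652, 427 and 491 FPKM in the PBS libraries and 3526, 1079.6 and 1682 in those of day 14, a change of 1.99 ± 0.43 (adjusted p = 0.025, limma). Without Ndufa4, 18 of 36 subunits rose.

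Taking the core apart, 18 of the 30 other subunits rose, with a median of 1.96, beside 1 of 7 with 0.88 in the core. At an unadjusted p under 0.05 (limma) it was 21 of the 30 and 4 of the 7, beside 3348 of 9788 genes in either direction. The gap between the counts thus depends on the threshold. Whether these counts differ was not tested. The sets also differ in length: 20 of the 37 subunits have a coding transcript under 1000 bases, and of the core only Ndufs7 does (983 bases). Shorter transcripts rose more over all genes, as described below, and the part of length in the gap was not tested. The medians had the same order in each day 14 library: 2.34, 1.28 and 1.41 for the 30 others and 1.10, 0.62 and 0.61 for the core, as differences from the PBS mean. Replicate 1 had the largest value in both sets and was the highest of day 14 for 29 of 37 subunits, a count without a share of all genes beside it. This library also had the lowest depth and the markers of tubule, leukocyte and endothelial cells, and their part in its values was not tested. In replicates 2 and 3 the median difference of all subunits from PBS was 1.16 and 1.28. In the fit without that library and day 9 replicate 3, all 19 subunits kept their call, Ndufa2 joined them, and the median change was 1.19, beside 8.11% of all genes that rose. With the trend on transcript length described below also removed, 15 rose and the median was 0.47, beside 5.45% of all genes.

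**Figure D3:**
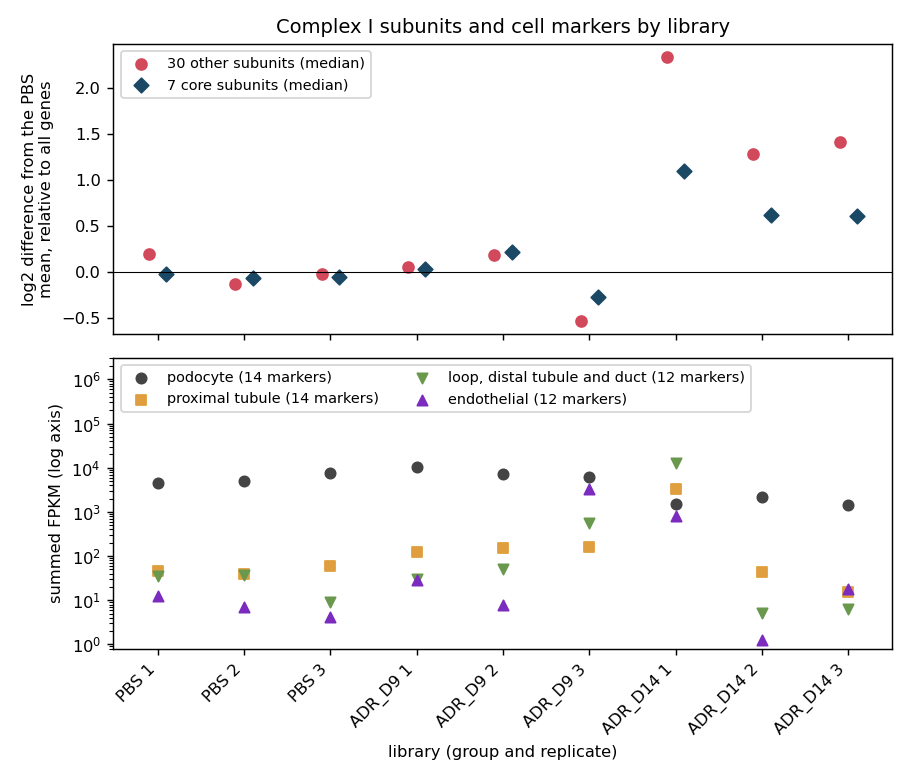
Upper panel: median log2 difference from the PBS mean, relative to all genes, over the 7 core and the 30 other subunits in each library. Lower panel: summed FPKM (log axis) of the markers of 4 cell types. The 3 day 14 libraries lie above 0 in the upper panel and day 9 replicate 3 lies lowest, while tubule markers are highest in day 14 replicate 1 and endothelial markers in day 9 replicate 3.

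The calls on day 14 rested on the PBS libraries as well. Without PBS replicate 2, 0 of 37 subunits and 0 of 9788 genes passed by limma (smallest adjusted p 0.066, with 20 subunits and 2349 genes at an unadjusted p under 0.05), and without PBS replicate 3 it was 2 subunits, beside 0.521% of all genes that rose. The median change in these leave-one-out fits stayed between 1.19 and 1.72. With a term for Y-linked transcripts no subunit and no gene passed by limma (21 subunits and 2282 genes at an unadjusted p under 0.05). Day 14 replicate 2, which had Y-linked transcripts like the PBS libraries, was above all 3 of them for 29 of 37 subunits. This is 1 library, without a share of all genes beside it. The part of the Y-linked difference in the change was not tested. With other scalings 21, 20 and 18 subunits rose (median of ratios, quantile, common total). The genes that rose and fell numbered 619 and 1051 as deposited, and 863 and 764, 710 and 755, and 393 and 1654 with these scalings. The median change of all genes was −0.15 as deposited and −0.01, −0.03 and −0.35 with them.

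Transcript length moved with the change on day 14. Subunit transcripts are short, and the rank correlation of the change with the length of the longest coding transcript was −0.32 over the 37 subunits and −0.36 over 9732 genes. Of 20 subunits with a coding transcript under 1000 bases, 12 rose (median 1.96), beside 146 of 671 such genes (median 0.77). From 1000 to under 2000 bases, 6 of 12 subunits rose (median 1.41), beside 277 of 2157 genes (median 0.47). At 2000 bases or more, Ndufab1 alone of 5 rose (median 0.11), beside 189 of 6904 genes (median −0.17). When each library's trend on transcript length and GC content was removed, 10 subunits rose and the median change was 0.89. Of all genes 3.32% rose (323 higher and 282 lower). These 10 subunits were Ndufa6, Ndufa7, Ndufa8, Ndufa11, Ndufa12, Ndufab1, Ndufb7, Ndufs6, Ndufv2 and Ndufv3. That trend used the longest transcript of any kind. Its length had a rank correlation with the change of −0.06 over the subunits and −0.33 over all genes. For Ndufb7 it has 4435 bases and the coding one 623, and the change became 2.53. The fit with coding transcripts is given at the end. What ties length to the change was not tested.

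**Figure D4:**
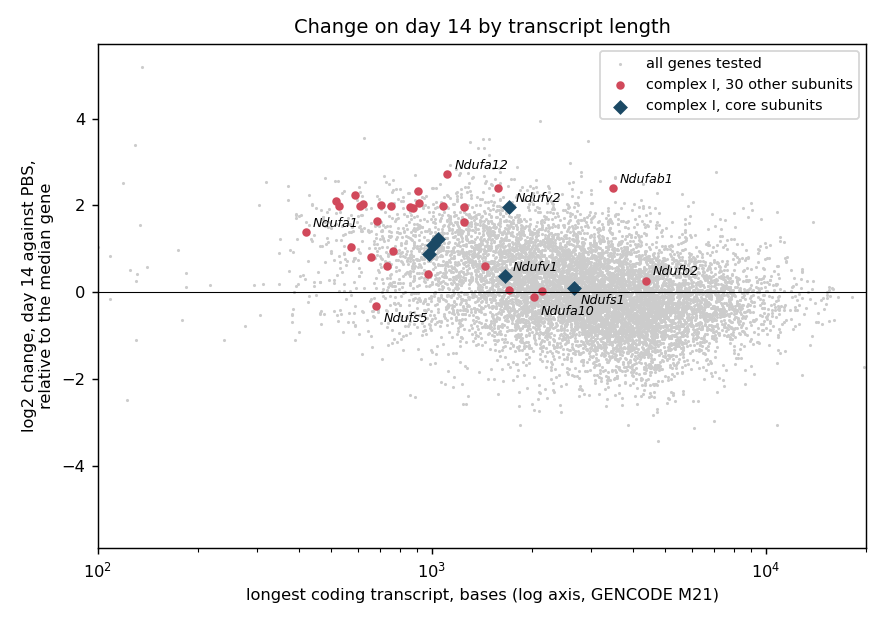
Log2 change on day 14 against PBS, relative to the median gene, by length of the longest coding transcript (log axis, bases), for all genes (grey), core subunits (blue diamonds) and the 30 other subunits (red circles). Most subunits lie on the left, under 2000 bases, where the cloud of all genes also lies above 0, and Ndufab1 stands apart among longer transcripts.

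Comparing day 14 with day 9 tests the difference between the times directly. It shares the day 14 libraries with the comparison above, so its values stand beside those and are not independent of them. Between day 9 and day 14, 18 of 37 subunits rose and none fell by limma, beside 5.71% and 9.98% of all genes. The median change was 1.63, and 27 of 37 subunits were higher with no overlap (13.2% of all genes) and 0 lower with none (24.6%). The largest changes were 2.92 ± 0.45 for Ndufa12 and 2.71 ± 0.44 for Ndufb9, then 2.67 ± 0.37 for Ndufv3 and 2.65 ± 0.46 for Ndufab1. Ndufa4, Ndufa5, Ndufb11, Ndufa6, Ndufb7 and Ndufc1 followed, at 2.14 to 2.45. In the core, Ndufv2 rose by 1.85 ± 0.26 (adjusted p = 0.011, limma).

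Some subunits passed in 1 of the comparisons only. Ndufa2 changed by 1.41 ± 0.32 against day 9 (adjusted p = 0.039, limma), beside 1.05 ± 0.32 against PBS. Ndufa2 was at 1341, 1580.5 and 781 FPKM on day 9, and replicate 3, the library with several other cells' markers, was the lowest. The change of Ndufa3 was 1.64 ± 0.43 against day 9 (adjusted p = 0.054, limma), beside 2.11 ± 0.43 against PBS, and that of Ndufb5 was 1.76 ± 0.52 (adjusted p = 0.075, limma), beside 1.99 ± 0.52. In these 2 all 3 day 9 libraries lay above all PBS libraries, as they did in 6.77% of all genes. Neither passed the test of day 9 against PBS (unadjusted p of 0.23 for Ndufa3 and 0.58 for Ndufb5, limma). Without day 9 replicate 3, 7 subunits passed against day 9, beside 1.30% of all genes that rose. Without day 9 replicate 1, it was 10 subunits, beside 2.13%. Without day 14 replicate 1, Ndufs1 fell. With the length and GC trend taken out, 11 rose, beside 2.95% of all genes. With other scalings 22, 21 and 16 rose, beside 559 genes higher and 977 lower as deposited, and 825 and 646, 677 and 535, and 372 and 1813 with median of ratios, quantile and common total.

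Other genes of the pathway were taken from lists. Assembly factors help build the complex and leave it. Of 13 tested, 2 rose on day 14 against PBS (6.32% of all genes) and none fell (10.7%), with a median change of 0.25. They were Ndufaf7, a methyltransferase (8.06, 6.97 and 7.24 FPKM in the PBS libraries, 25.6, 13.1 and 16.2 in those of day 14, change 1.29 ± 0.29), and Tmem70, which acts in complex I and ATP synthase assembly (12.4, 11.4 and 13.4 FPKM in the PBS libraries, 68.0, 23.1 and 26.1 in those of day 14, change 1.56 ± 0.39). Their adjusted p were 0.030 and 0.040 (limma), and neither gene overlapped between the groups.

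Of 38 nuclear-encoded subunits of complexes II to V, 13 rose on day 14 (6.32% of all genes) and 1 fell (10.7%). Their median change was 1.17. Complex II, which feeds electrons from succinate into the same quinone pool, had 1 of each. Its iron-sulfur subunit Sdhb was at 704, 587 and 535 FPKM in the PBS libraries and 1947, 1269.7 and 1863 in those of day 14 (change 1.60 ± 0.26). Its flavin subunit Sdha was at 87.0, 99.8 and 110.8 FPKM in the PBS libraries and 33.2, 29.5 and 45.6 in those of day 14 (change −1.30 ± 0.23). Their adjusted p were 0.013 and 0.011 (limma), and the 3 day 14 libraries lay wholly above PBS for Sdhb and wholly below for Sdha. Atp5k, a small subunit of the ATP synthase, rose by 2.12 ± 0.34. In complex III 3 of 9 rose, in complex IV 4 of 10 and in the ATP synthase 5 of 15.

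Of 10 tested regulators of nuclear respiratory genes, none rose on day 14 (6.32% of all genes) and 3 fell (10.7%). The median change of the 10 was −0.07, where the median gene is 0. The 3 that fell are coactivators of this program or a receptor they act through. Pprc1, a coactivator that works with NRF1, was at 6.18, 7.32 and 7.80 FPKM in the PBS libraries, 4.56, 5.20 and 7.99 in those of day 9, and 0.981, 0.990 and 0.983 in those of day 14 (change −1.88 ± 0.25, adjusted p = 0.0099, limma). Esrra, an orphan nuclear receptor, was at 33.3, 21.1 and 18.4 FPKM in the PBS libraries and 10.4, 8.98 and 12.0 in those of day 14 (change −0.96 ± 0.28, adjusted p = 0.030, limma). Ppargc1b, a coactivator of Esrra, was at 1.74, 1.74 and 2.24 FPKM in the PBS libraries and 0.843, 0.701 and 0.443 in those of day 14 (change −0.66 ± 0.19, adjusted p = 0.026, limma). Each of the 3 was lower in every day 14 library than in any PBS library. Pprc1 and Ppargc1b were under 1 FPKM in every library of day 14, the group of lowest depth. Over all genes, 966 of 6904 with a coding transcript of 2000 bases or more fell, beside 7 of 671 under 1000 bases. The part of length in the falls of these 3 genes and of Sdha was not tested. The factors whose motifs are described above, Nrf1, Gabpa and Yy1, did not pass, and Nrf1 was at 19.1, 17.5 and 15.2 FPKM in the PBS libraries and 21.2, 20.9 and 14.9 in those of day 14. Against day 9, 16 subunits of complexes II to V rose and Sdha fell, Ndufaf7 alone of the assembly factors rose, and Pprc1 and Esrra fell. In that comparison 5.71% of all genes rose and 9.98% fell.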

How the data were processed

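RNA from GFP-positive podocytes was measured in 9 libraries, depleted of ribosomal RNA per the labels' protocols. The authors deposited FPKM values, 1 column per library. Per the submitters' processing notes, Bowtie 0.12.7, Cufflinks and mouse build mm9 were used, without roles. Annotation, strand use and handling of multiply matching reads were not given in the sources used here. Where a symbol stood on more than 1 row (260 symbols), that with the highest mean was kept. From these values log2(FPKM + 1) was computed and tested with limma (version 3.58.1, R 4.3.3, trend=TRUE, two-sided). The model held all 9 libraries with a term for group alone and had Benjamini-Hochberg adjustment over 9788 genes in each comparison and a threshold of 0.05. Depth in fragments is unknown, so no counting interval is given. Lengths came from GENCODE M21 transcripts, matched for 99.4% of genes tested.

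Named were the core subunits, up to 10 subunits per comparison that passed with the largest change, subunits under 1 FPKM in any library, up to 3 genes per other list by smallest p, Sdha and Sdhb; others were named with their values seen. The values of 1 subunit, which is part of all counts and medians, are not reported here. The members and lists were chosen with earlier results of these data known. The fit was tested on simulated data. Alternatives changed the pseudocount, filter, scaling, fit, libraries and the trend on length.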

Additional observations from a re-analysis of the deposited data

Results flagged for a closer look

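The changes from PBS on day 14 and on day 9 differed for 18 subunits, by limma's test of day 14 against day 9 (adjusted p under 0.05, both changes sharing the PBS libraries, which cancel in the difference). The differences, log2 and relative to the median gene, were 2.92 for Ndufa12, 2.71 for Ndufb9, 2.67 for Ndufv3, 2.65 for Ndufab1, 2.45 for Ndufa4 and 2.35 for Ndufa5. They were 2.34 for Ndufb11, 2.25 for Ndufa6, 2.16 for Ndufb7, 2.14 for Ndufc1, 2.10 for Ndufa11, 2.09 for Ndufa7 and 2.01 for Ndufa8. They were 1.95 for Ndufs6, 1.85 for Ndufv2, 1.67 for Ndufa13, 1.63 for Ndufa1 and 1.41 for Ndufa2. For each of the 18, all 3 day 14 libraries were above all 3 of day 9.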

How the results depend on the processing

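Against PBS, the 19 subunits that rose on day 14 became 11 with no filter on low values (1.76% of all genes). They became 9 when only the groups compared were fitted (1.73%). With a term for Y-linked transcripts it was 0 (0%), and at a threshold of 0.01 it was 1 (0.388%). With each library's length and GC trend removed, 10 rose and the median fell from 1.61 to 0.89. Using coding transcripts for that trend, an alternative chosen after seeing the data, gave 8 and 0.88. Another chosen then removed the trend on the longest transcript of any kind and left out day 14 replicate 1 and day 9 replicate 3. It gave a median of 0.47. Leaving out 1 library gave 0 to 19 subunits. Against day 9, the 18 became 5 when only the groups compared were fitted (0.766% of all genes) and 0 at a threshold of 0.01 (0.388%). With the trend removed 11 rose (2.95%, median 0.77), and with that of coding transcripts 7 (2.38%, median 0.75). With the trend on the longest transcript of any kind and both libraries removed, 2 rose (1.14%, median 0.44). Without both libraries the median was 0.95. Leaving out 1 library gave 7 to 19 rising and 0 to 1 falling (Ndufs1).

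Same-numbered libraries had correlations of −0.27 to 0.43, so the numbers were not taken as pairs. With the number as a replicate block, 19 and 18 subunits rose, as without it, beside 5.31% and 4.62% of all genes. The replicate block with the trend removed gave 5 against PBS (1.59% of all genes, median 0.89, Ndufs1 −0.13) and 0 against day 9 (0%, median 0.77).

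The change of Ndufs1 against PBS turned negative with no filter (−0.029), the Y-linked term (−0.0079), the trend removed (−0.13), that of coding transcripts (−0.086), both libraries left out (−0.28) and both with the trend removed (−0.52), and ran from −0.28 to 0.33 with 1 library left out. That of Ndufa10 ran from −0.20 to 0.0096 with 1 library left out and from −0.47 to 0.0096 over all alternatives. The other subunits whose change from PBS on day 14 crossed 0 under some alternative did not pass the test: Ndufb2 (−0.12 to 0.66), Ndufb4 (−0.25 to 0.55), Ndufb8 (−0.51 to 0.47), Ndufb10 (−0.23 to 0.73), Ndufs4 (−0.43 to 0.25) and Ndufs5 (−1.51 to 0.74). The cause was not tested. Low depth on day 14 limits the precision of the low transcripts, among them Ndufs3, Ndufc2 and Ndufb3, and of Pprc1 and Ppargc1b among the regulators.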
